A study of Homo sapiens with 32 samples.

Results

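The oxidative phosphorylation genes examined here were 97 of the 19970 protein-coding genes on chromosomes 1 to 22 and X. They were the protein-coding genes of the GRCh38 RefSeq gene table whose symbols begin with NDUFA, NDUFB, NDUFC, NDUFS, NDUFV, UQCR, ATP5 or COX followed by a digit from 4 to 8, together with SDHA, SDHB, SDHC, SDHD and CYC1. The choice used symbols alone and no measured value. By complex, 38 genes carried complex I symbols, 8 were complex I assembly factors whose symbols begin with NDUFAF, 4 encoded complex II, 10 complex III, 17 complex IV and 20 complex V. ATP5MF-PTCD1 and NDUFC2-KCTD14 are readthrough genes that join a subunit gene to its neighbour.

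m6A, a methyl mark on adenosine in RNA, was mapped by MeRIP-seq, in which RNA fragments bound by an antibody against m6A (the IP) are compared with the Input RNA. The question was whether loss of SETD2, the enzyme that places H3K36me3 on histones, changes where m6A lies. The 2 cell lines were 786-O, from a clear cell renal cell carcinoma, and RPTEC, renal proximal tubule epithelial cells immortalised with hTERT. None of the cultures was treated. Each cell line gave 4 lines: WT, the parent with intact SETD2; SETD2KO-1 and SETD2KO-2, each a single clone in which CRISPR/CAS9 had inactivated SETD2; and SETD2KO-1R, made from the first clone by putting SETD2 back. There were 2 IP libraries per line, hence 8 per cell line and 16 in total. The term SETD2-expressing covers WT together with SETD2KO-1R, so 4 SETD2KO libraries faced 4 SETD2-expressing ones in each cell line. Each cell line is 1 model and each knockout 1 clone, and nothing states that replicate libraries came from separate cultures, so the spread between libraries may be technical.

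Oxidative phosphorylation is carried out by 5 complexes of the inner mitochondrial membrane. Complexes I and II pass electrons from NADH and succinate to ubiquinone, complex III passes them to cytochrome c, and complex IV passes them to oxygen. Complexes I, III and IV pump protons, and complex V, the ATP synthase, makes ATP as the protons flow back. Most subunits are encoded in the nucleus, as short and highly expressed mRNAs, and clear cell renal cell carcinoma is known for low mitochondrial respiration.

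The deposited lists held 25710 to 39670 peaks per library in 786-O and 19249 to 31207 in RPTEC. A peak was counted to a gene when it overlapped the gene body by at least 1 bp. The lists carry no read counts, so the depth behind a peak is unknown, and a called peak reflects both the amount of an RNA and its methylation, which cannot be told apart. Peaks carry no strand and the gene table no exons. Of the 97 gene bodies, 24 overlapped another protein-coding gene, whose RNA could give the same peak. SETD2 itself had peaks in all 16 libraries, so the peak lists do not check the knockout. PAX8, PAX2, KRT8, KRT18 and CDH2, markers of kidney epithelium, had peaks in 8 of 8 libraries of both cell lines, while CDH1 had none and EPCAM had one in 2 libraries of RPTEC. Of 6 proximal tubule genes, GGT1 had peaks in 8 of 8 libraries of both, ANPEP in 2 of 786-O and 8 of RPTEC, CUBN in 1 of 786-O, and LRP2, SLC34A1 and AQP1 in none. Of 5 carcinoma and hypoxia genes, EPAS1 and VEGFA had peaks in 8 of 8 of both, EGLN3 in 7 and 2, ANGPTL4 in 5 and 4, and CA9 in none. Blood markers PTPRC, CD3E and LYZ had none. The endothelial genes PECAM1 and KDR had none and CDH5 had peaks in 4 libraries of RPTEC. Of the fibroblast genes, COL1A1 had peaks in 1 and 6 libraries, PDGFRB in 5 and 4 and THY1 in none.

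Oxidative phosphorylation genes carried m6A peaks about as often as other genes in 786-O and less often in RPTEC. In 786-O WT, 48 and 50 of the 97 genes had a peak. The SETD2KO-1 libraries had 47 and 47, the SETD2KO-2 libraries 53 and 40, and the SETD2KO-1R libraries 43 and 42. These are 47.7% ± 4.47 of the 97 genes (SD, n = 8 libraries), beside 48.6% ± 2.39 of all protein-coding genes. In RPTEC WT the counts were 35 and 30. They were 26 and 33 in SETD2KO-1, 34 and 17 in SETD2KO-2, and 36 and 37 in SETD2KO-1R. These are 32.0% ± 6.88 of the genes (SD, n = 8 libraries), beside 45.1% ± 3.17 of all genes. Every RPTEC library lay below every 786-O library for oxidative phosphorylation genes. In RPTEC the share of the 97 genes lay below that of all genes in 8 of 8 libraries, and in 786-O in 5 of 8. By SETD2 status the 786-O shares were 48.2% ± 5.48 in SETD2KO and 47.2% ± 3.98 in SETD2-expressing libraries (SD, n = 4 per status), and those of RPTEC were 28.4% ± 8.10 and 35.6% ± 3.21. The 2 statuses overlapped in each cell line. In such bulk samples, fewer cells of a type and less RNA per cell cannot be told apart.

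**Figure D1:**
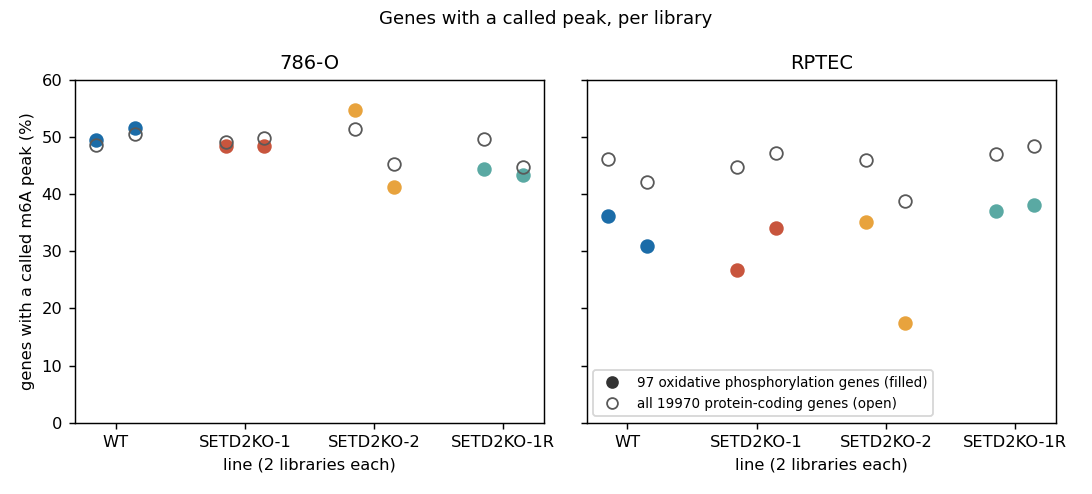
Share of genes with at least 1 called m6A peak (vertical axis, percent) in each library, by line (horizontal axis), in 786-O and RPTEC. Filled points are the 97 oxidative phosphorylation genes and open points all 19970 protein-coding genes; the filled points follow the open ones in 786-O and lie below them in all 8 RPTEC libraries.

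List length and gene length bear on these shares. When each of the 16 libraries was cut to the same number of its highest-scoring peaks, the 97 genes had a peak in 38.0% of cases in 786-O and 26.4% in RPTEC, and all genes in 39.7% and 39.9%. The difference between the cell lines therefore remained for oxidative phosphorylation genes at equal list lengths, while that of all genes did not. The median gene body was 9936 bp for the 97 genes and 24190 bp for all genes. Of the 4993 protein-coding genes with the shortest bodies, 51 to 8596 bp, 46 were among the 97. Those 46 had a peak in 45.1% of cases in 786-O and 27.7% in RPTEC, beside 30.6% and 26.4% for all 4993. In the next 2 classes of body length, which held 31 and 15 of the 97, the shares were 45.2% and 57.5% in 786-O, beside 46.6% and 56.7% of genes of those lengths. In RPTEC they were 30.2% and 39.2%, beside 41.1% and 52.9%. The 5 with the longest bodies had 57.5% in 786-O, beside 60.6%, and a share within 1 percentage point of the 59.9% of such genes in RPTEC. Set against genes of like length, the 97 lay furthest above them in the shortest class in 786-O, and lay below them in the middle classes in RPTEC.

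Compared with all genes, fewer of the 97 had a peak in every library and fewer had none. In 786-O, 19 of the 97 (19.6%) had a peak in all 8 libraries, beside 32.0% of all genes, and 20 (20.6%) had none, beside 37.8%. In RPTEC, 5 genes (5.15%) had a peak in all 8 libraries, beside 26.8%, and 29 (29.9%) had none, beside 39.0%. Over the 16 libraries, NDUFA10, NDUFV3, NDUFC1, NDUFA1 and SDHA had a peak in each. That is 5 of 97, and 23.1% of all genes met the same rule. The 16 genes with no peak in any library, beside 32.8% of all genes, included SDHB, SDHD, UQCRFS1, NDUFS3, NDUFA8, ATP5MC1, COX7A2 and COX8A. Peaks in the 97 genes did not have low scores: their median rank within a library's list averaged the 54.1th percentile in 786-O and the 50.6th in RPTEC, beside 52.4 and 52.1 for peaks in all protein-coding genes.

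The complexes differed in how many of their genes had peaks. Averaged over the 8 libraries, 55.3% of the 38 complex I genes had a peak in 786-O and 39.1% in RPTEC. For the 8 assembly factors the shares were 70.3% and 43.8%, for the 10 complex III genes 53.8% and 28.7%, and for the 20 complex V genes 45.0% and 30.6%. Complex IV was lowest among the larger groups, with 23.5% and 15.4% of its 17 genes. In each of these groups the share was higher in 786-O. Other genes of the pathway, listed by function rather than by their peaks, gave higher shares as a whole. The 104 genes for assembly, electron carriers, regulation and mitochondrial DNA maintenance that are not among the 97 averaged 68.1% in 786-O and 55.6% in RPTEC. By function, complex IV assembly factors averaged 69.5% and 56.0%, electron carriers and ubiquinone synthesis 61.3% and 37.5%, and transcriptional regulators such as NRF1, ESRRA and PPARGC1B 82.8% and 68.8%. Complex V assembly factors were lower, at 42.5% in both cell lines.

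**Figure D2:**
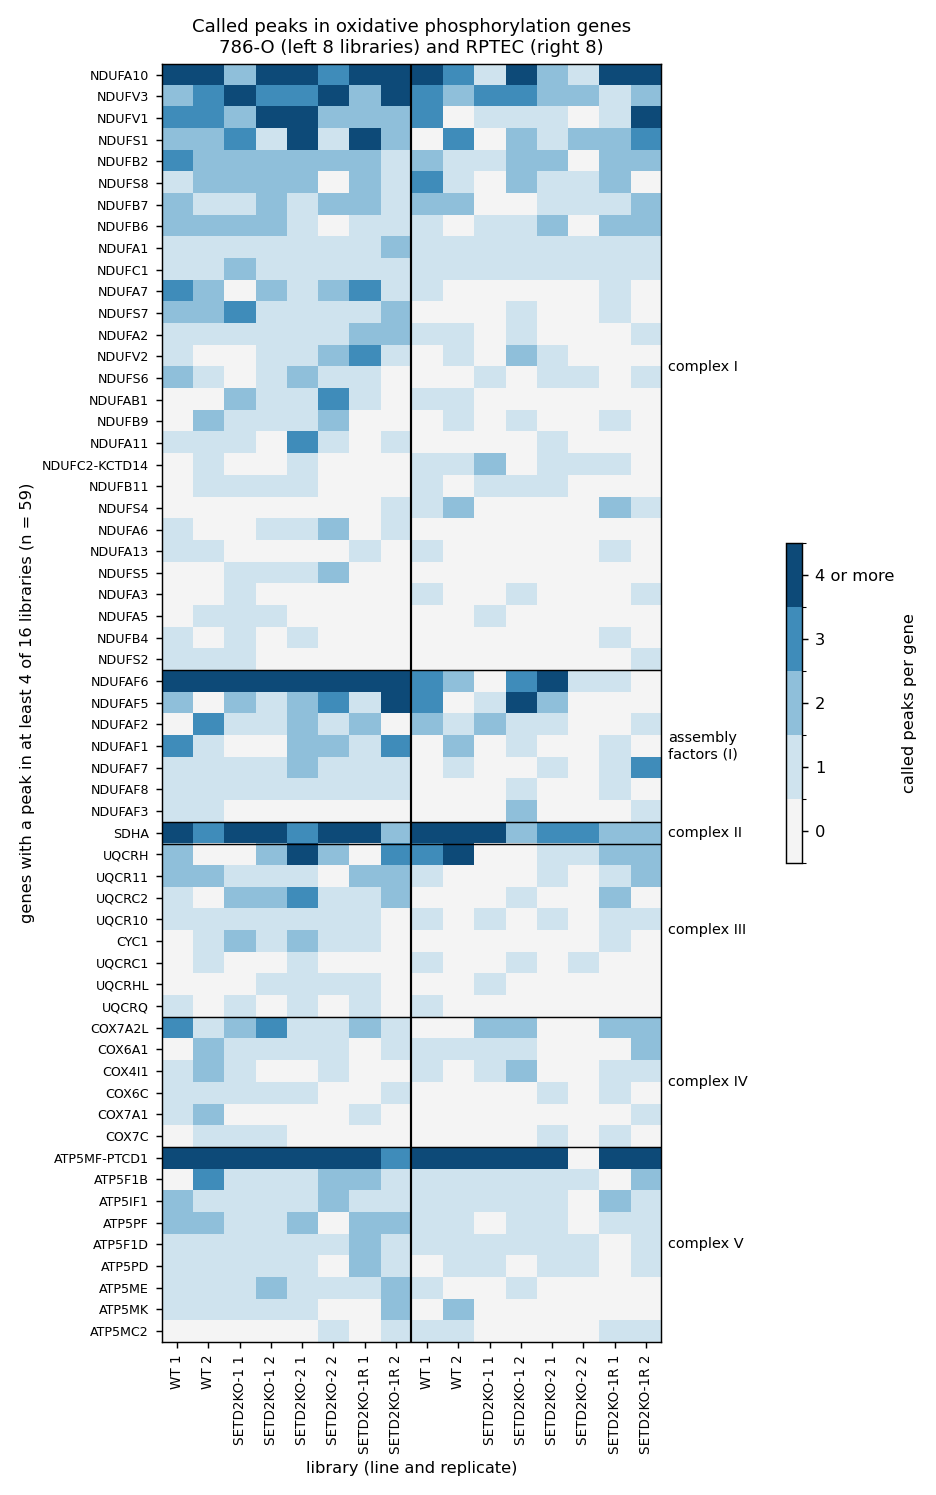
Number of called peaks in each library (columns, 8 of 786-O then 8 of RPTEC) for the 59 oxidative phosphorylation genes with a peak in at least 4 of the 16 libraries (rows, ordered by complex and then by total peaks). Colour gives the number of peaks from 0 to 4 or more; NDUFA10, NDUFV3 and SDHA are filled throughout, and most rows are paler on the RPTEC side.

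Complex I, the NADH dehydrogenase, held NDUFA10, the gene of the 97 with the most peaks whose summit lay in 1 gene alone. NDUFA10, a supernumerary subunit with a long gene body, had 10 and 6 peaks in 786-O WT, 2 and 8 in SETD2KO-1, 8 and 3 in SETD2KO-2 and 9 and 4 in SETD2KO-1R. In RPTEC it had 4 and 3, then 1 and 7, 2 and 1, and 4 and 4 in the same order of lines. The replicates of a line differed by as much as the lines. NDUFV3, a small subunit of the NADH-binding module, was steadier, with 2 to 5 peaks in each 786-O library and 1 to 3 in each RPTEC library. One of its regions, chr21:42908331-42909090, was called in 15 of 16 libraries. The core subunits NDUFV1, which binds FMN, and NDUFS1, which carries iron-sulfur clusters, had 34 and 32 peaks in all. NDUFV1 had peaks in 8 of 8 libraries of 786-O and 6 of 8 of RPTEC, and so had NDUFS1. NDUFS3, another core subunit, had none. The assembly factor NDUFAF5 had 26 peaks, with 2 and 0 in 786-O WT, 2 and 1 in SETD2KO-1, 2 and 3 in SETD2KO-2 and 1 and 5 in SETD2KO-1R. In RPTEC it had 3 and 0, 1 and 4, 2 and 0, and 0 and 0, so that libraries of 1 line differed by up to 4 peaks.

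Complex II, succinate dehydrogenase, was split. SDHA, the flavoprotein subunit, had 4 and 3 peaks in 786-O WT, 4 and 5 in SETD2KO-1, 3 and 4 in SETD2KO-2 and 6 and 2 in SETD2KO-1R. In RPTEC it had 5 and 5, then 5 and 2, 3 and 3, and 2 and 2. A region inside the gene, chr5:263063-264270, was called in all 16 libraries, and no other protein-coding gene overlaps it. SDHB, the iron-sulfur subunit, and SDHD, a membrane anchor, had no peak in any library, and SDHC, the other anchor, had 1 peak in each 786-O SETD2KO-1R library and none elsewhere.

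Regions called in all 16 libraries were rare among these genes. They numbered 4 of 278 merged regions (1.44%), beside 4.85% of the 82617 regions in protein-coding genes. Besides that in SDHA, they lay at NDUFC1 (chr4:139300800-139301774, shared with NAA15), at NDUFA1 (chrX:119870862-119871872) and at UQCRH (chr1:46300654-46303734). Only 41 bp of the NDUFA1 region and 37 bp of the UQCRH region lay inside those genes, and the rest reached into RNF113A and LRRC41. In the UQCRH region a peak reached the gene in 1 library alone, 786-O SETD2KO-2 replicate 1, so it is not a region of UQCRH in the other libraries. Of the 17 peaks counted to NDUFA1, 1 had its summit in NDUFA1 alone. Regions that lay wholly inside 1 subunit gene and were nearly constant were found in ATP5F1D, the delta subunit of the ATP synthase, at chr19:1243830-1244361 in 15 of 16 libraries, and in NDUFB2 at chr7:140697917-140698962 in 14 of 16. ATP5IF1, the inhibitor of the ATP synthase, had a region at its start, chr1:28235937-28236607, in 15 of 16 libraries.

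A start site is shown for the genes whose first transcribed bases overlapped a peak in most libraries, to show the letters of the RNA beside them. RefSeq start sites with sequence (GRCh38.p14) were matched for 78 of the 97 genes. The first 50 bases after the start overlapped a peak by at least 1 bp in all 8 libraries of 786-O for NDUFA1, ATP5IF1 and NDUFA2 (3 of 78, 3.85%), beside 2.42% of 15812 protein-coding genes. In RPTEC this held for NDUFA1 alone (1.28%), beside 1.33%, and for ATP5IF1 it held in 7 of 8 libraries and for NDUFA2 in 4. Averaged over libraries, the first 50 bases overlapped a peak for 8.49% of the 78 genes in 786-O and 4.65% in RPTEC, beside 11.6% and 8.14% of all genes. A stretch of 30 bases from each of these windows follows, 5′ to 3′ on the strand of the gene, with GGAC, a core of the sequence in which m6A is usually placed, in capitals.
NDUFA1, chrX:119871852-119871881, plus strand: aagccaggtcacctttcaaGGACccagaag
ATP5IF1, chr1:28236124-28236153, plus strand: agcgcgtaacgagagactgcttgctgcggc
NDUFA2, chr5:140647601-140647630, minus strand: gcacttggcctgaagacctggaattggcga
On the sense strand, GGAC lay within the first 50 bases of 22 of the 78 genes (28.2%), beside 19.7% of all genes with a start site. The longer GGACT, which contains GGAC, lay there in 5 of 78 (6.41%), beside 4.82%. Of the windows shown, that of NDUFA1 holds GGAC, but the merged peak region ends within these letters, before their A. Those of ATP5IF1 and NDUFA2 hold it nowhere in their first 50 bases. The NDUFA2 window overlaps TMCO6, and the peak over NDUFA1 lies mostly outside the gene, so these peaks cannot be given to 1 RNA.

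No oxidative phosphorylation gene passed the test for SETD2 status in either cell line. The number of peaks per gene, as log2(peaks + 1), was compared between 4 SETD2KO and 4 SETD2-expressing libraries with limma, with Benjamini-Hochberg adjustment over all genes that had a peak in at least 2 libraries. In 786-O, 64 of the 97 genes were tested and 0 had an adjusted p under 0.05 in either direction, beside 0.242% of all genes higher and 0.164% lower. At an unadjusted p under 0.05, 3 were higher and 3 lower, and 5.99% and 3.37% of all genes were. In RPTEC 50 genes were tested and 0 passed, beside 0.197% of all genes higher and 0.0627% lower. There 0 were higher and 4 lower at an unadjusted p under 0.05, beside 3.60% and 6.90% of all genes. The median log2 difference was 0.0 for the tested genes and for all genes in 786-O, and -0.15 and -0.12 in RPTEC.

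The 6 genes with the lowest p in each cell line are described next, none of which passed the adjusted threshold. NDUFS5, COX7A1 and NDUFA13 in 786-O, and NDUFS4 and ATP5MC2 in RPTEC, had peaks in 1 SETD2 status alone. These genes entered the test only by being high in that status, so their differences are no support for an effect of SETD2. In 786-O, NDUFS5, a small accessory subunit of complex I, had no peak in any of the 4 SETD2-expressing libraries. It had 1 and 1 in SETD2KO-1 and 1 and 2 in SETD2KO-2. The groups did not overlap, a pattern that 1.63% of the 786-O genes tested showed in this direction. Its log2 difference was 1.15 ± 0.29 (SE), with an adjusted p of 0.135 by limma, and over 20 alternative settings the adjusted p ran from 0.0185 to 0.604, below 0.05 in 1 of them, the fit without robust moderation. In 3 of the 4 SETD2KO libraries a peak lay in chr1:39032422-39032852. Its score stood at the 22.5th and 18.0th percentile in SETD2KO-1 and at the 64.9th in SETD2KO-2 replicate 2. The peak of SETD2KO-2 replicate 1 lay elsewhere, at the 32.7th percentile, and a further peak of SETD2KO-2 replicate 2 at the 90.8th. In RPTEC it had no peak in any library. The effect of SETD2KO in 786-O minus that in RPTEC was 1.15 ± 0.28 (SE; adjusted p = 0.0740 by limma over all genes).

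NDUFAB1, the mitochondrial acyl carrier protein, had 0 peaks in both 786-O WT libraries, 2 and 1 in SETD2KO-1, 1 and 3 in SETD2KO-2, and 1 and 0 in SETD2KO-1R. The groups touched at 1 peak (log2 difference 1.15 ± 0.36 SE, adjusted p = 0.280 by limma). In RPTEC it had 1 and 1 in WT, at separate places in the gene, and 0 in the other 6 libraries. CYC1, cytochrome c1, had 0 and 1 in 786-O WT, 2 and 1 in SETD2KO-1, 2 and 1 in SETD2KO-2, and 1 and 0 in SETD2KO-1R (adjusted p = 0.479 by limma). CYC1 lies on chromosome 8, which held 4.38% of all 786-O peaks in SETD2KO and 3.61% in SETD2-expressing libraries. The part of that difference in the value for CYC1 was not tested.

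In the other direction in 786-O, UQCR11, a small subunit of complex III, had 2 and 2 peaks in WT and 2 and 2 in SETD2KO-1R. It had 1 and 1 in SETD2KO-1 and 1 and 0 in SETD2KO-2. The groups did not overlap, as for 0.967% of genes in this direction (log2 difference -0.83 ± 0.29 SE, adjusted p = 0.360 by limma). The direction turned when the upper 50% of peaks by score were used (0.50) and at equal list lengths (0.10). COX7A1, the heart and muscle form of a complex IV subunit, had 1 and 2 in WT, 1 and 0 in SETD2KO-1R and none in SETD2KO. NDUFA13, a complex I subunit also known as GRIM-19, had 1 and 1 in WT, 1 and 0 in SETD2KO-1R and none in SETD2KO. Adjusted p was 0.419 for COX7A1 and 0.433 for NDUFA13 by limma.

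In RPTEC the 6 genes with the lowest p were all lower in SETD2KO. UQCRH, the hinge protein of complex III, had 3 and 4 peaks in WT, 0 and 0 in SETD2KO-1, 1 and 1 in SETD2KO-2 and 2 and 2 in SETD2KO-1R (log2 difference -1.37 ± 0.34 SE, adjusted p = 0.122 by limma). NDUFS4, an accessory subunit of complex I, had 1 and 2 in WT, 2 and 1 in SETD2KO-1R and none in the 4 SETD2KO libraries (-1.29 ± 0.32 SE, adjusted p = 0.122). ATP5MC2, a gene for subunit c of the ATP synthase rotor, had 1 in each of the 4 SETD2-expressing libraries and none in SETD2KO (-1.0 ± 0.28 SE, adjusted p = 0.162 by limma). In both WT and SETD2KO-1R its replicate 1 peak lay within chr12:53665385-53665678 and its replicate 2 peak within chr12:53668238-53668713. No place was thus shared by the replicates of a line. Of the alternative settings, 1 of 19 gave NDUFS4 and 2 of 21 gave ATP5MC2 an adjusted p under 0.05. For these 3 genes the groups did not overlap, as for 1.54% of the RPTEC genes tested in this direction. None lay apart in the other direction, beside 1.1% of genes. NDUFB7 had 2 and 2 in WT, 0 and 0 in SETD2KO-1, 1 and 1 in SETD2KO-2 and 1 and 2 in SETD2KO-1R (adjusted p = 0.348 by limma). ATP5MF-PTCD1 had 7 and 5 in WT, 4 and 4 in SETD2KO-1, 5 and 0 in SETD2KO-2 and 6 and 6 in SETD2KO-1R (adjusted p = 0.475). NDUFAF7, an assembly factor of complex I, had 0 and 1, 0 and 0, 1 and 0, and 1 and 3 in the same order (adjusted p = 0.574 by limma), and its groups overlapped. In RPTEC SETD2KO-2 replicate 2, the shortest list, 17 of the 97 genes had a peak. Its part in these values was not tested beyond leaving it out, which left the adjusted p of UQCRH, NDUFS4 and ATP5MC2 above 0.05.

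In 786-O these RPTEC genes went no common way. UQCRH had 2 and 0 in WT, 0 and 2 in SETD2KO-1, 4 and 2 in SETD2KO-2, and 0 and 3 in SETD2KO-1R. The groups overlapped. NDUFS4 had a single peak in the 8 libraries and ATP5MC2 a pair, 1 of them in a SETD2KO library. The SETD2KO effect in 786-O exceeded that in RPTEC by 1.85 ± 0.69 (SE) for UQCRH, 1.04 ± 0.36 for NDUFS4, 1.00 ± 0.39 for ATP5MC2 and 1.65 ± 0.47 for NDUFAB1, with adjusted p from 0.176 to 0.394 by limma. Of the 71 genes tested for such a difference, 0 passed, and 7 had an unadjusted p under 0.05, all with the larger value in 786-O, beside 6.18% of all genes in that direction and 2.95% in the other. Over all genes tested, 0.205% passed with the larger value in 786-O and 0.181% with the larger in RPTEC.

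**Figure D3:**
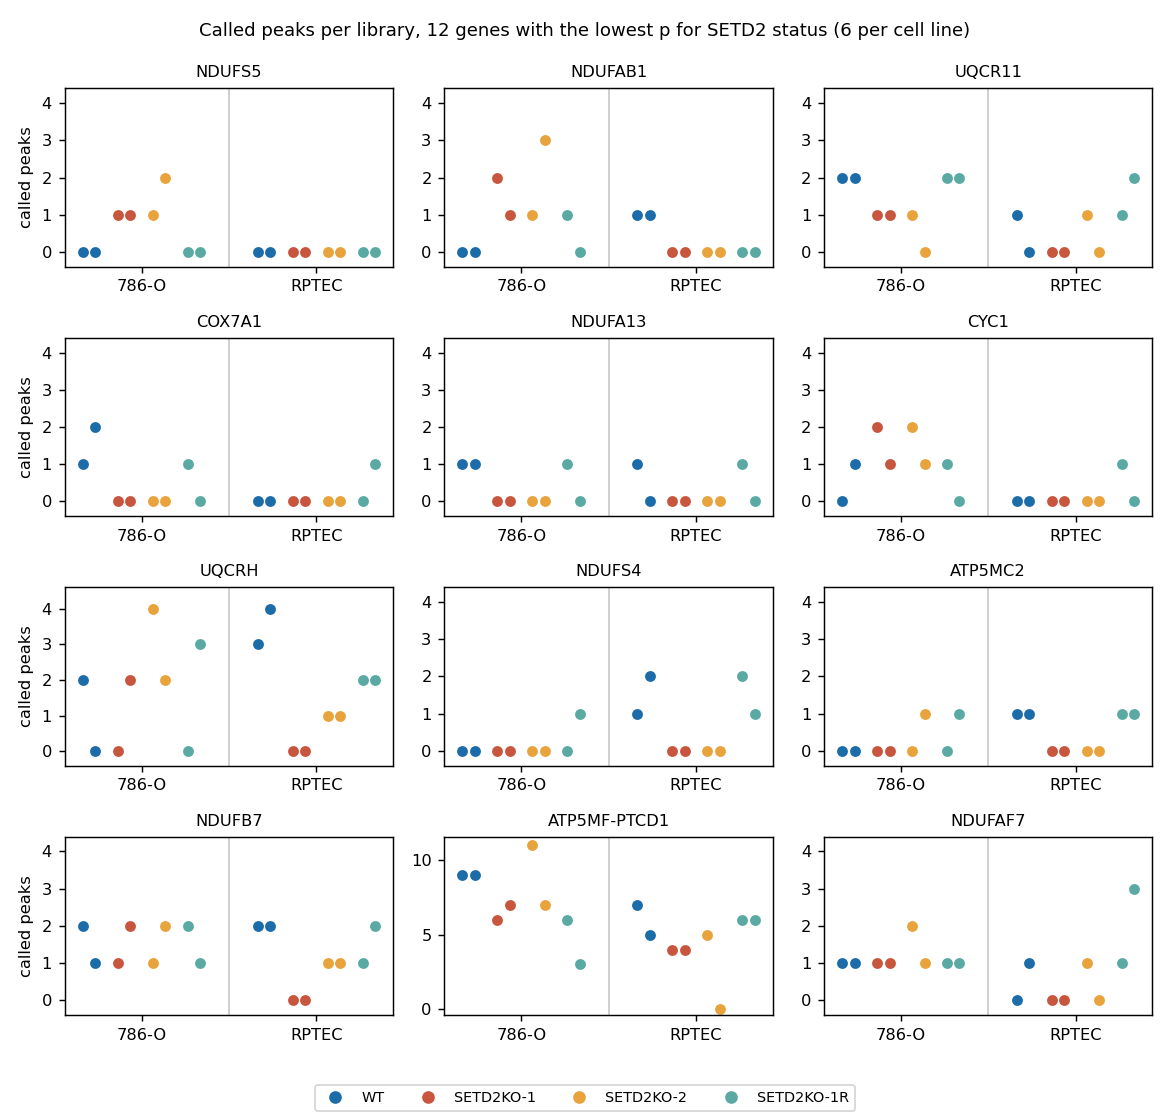
Number of called peaks (vertical axis) in each library of 786-O and RPTEC for the 12 genes with the lowest p for SETD2 status, 6 per cell line; colour gives the line. NDUFS5 has peaks in the 786-O SETD2KO libraries alone, and UQCRH, NDUFS4 and ATP5MC2 have fewer in the RPTEC SETD2KO libraries than in the SETD2-expressing ones.

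The SETD2KO clones were also set against WT, and the rescue against its own clone. These comparisons share libraries with those above and are not separate evidence. In 786-O 0 of 64 genes passed in SETD2KO against WT, beside 0.0518% of all genes in each direction, with 3 higher and 4 lower at an unadjusted p under 0.05 (limma), beside 3.78% and 4.98% of all genes. In SETD2KO-1R against SETD2KO-1, 0 passed, beside 0.0% higher and 0.00863% lower, with 2 higher and 3 lower at an unadjusted p under 0.05, beside 3.31% and 7.5%. Without any 1 of the 8 libraries of 786-O, 2 to 6 genes passed the adjusted threshold in each of these 2 comparisons. Over all genes 327 to 541 then passed against WT, beside 12 with all libraries, and 287 to 412 in the rescue, beside 1. Where this leaves 1 library in an arm, that library is assumed to vary like the other lines, so these fits are no firm test of either count. Without overlap against WT, NDUFAB1 and NDUFS5 had more peaks in 786-O SETD2KO, beside 3.88% of genes, and COX7A1, NDUFA13, NDUFAF3 and UQCR11 fewer, beside 5.72%. Between SETD2KO-1R and SETD2KO-1 of 786-O, 5 genes lay apart with more peaks in the rescue, beside 7.44%, UQCR11 and SDHC among them, and 6 with fewer, beside 17.1%, NDUFS5 among them. Of these named genes, NDUFS5, COX7A1, NDUFA13, NDUFAF3 and SDHC had 786-O peaks in 1 SETD2 status alone. They could be compared only by being high there and are no support for a difference. In RPTEC SETD2KO against WT, 4 of 50 genes passed: UQCRH, ATP5MC2 and NDUFAB1 were lower and COX7A2L was higher, beside 1.4% of all genes lower and 1.93% higher. For SETD2KO-1R against SETD2KO-1, UQCRH and ATP5MC2 passed and were higher, beside 1.4% of all genes higher and 1.02% lower. Without any 1 of the 8 libraries of RPTEC, 3 to 6 genes passed against WT and 2 to 6 in the rescue, with 5 and 6 in the rescue without SETD2KO-1R replicate 1 and 2, where 1 library stood for the rescue and its spread was taken from the other lines. Over all genes 410 to 558 then passed against WT, beside 372, and 362 to 438 in the rescue, beside 270. In RPTEC 5 genes lay apart with fewer peaks in SETD2KO than in WT, beside 5.01%, and 0 with more, beside 3.37%. In the RPTEC rescue 8 genes lay apart with more peaks, beside 14.3%, and 3 with fewer, beside 7.37%.

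For UQCRH, the log2 difference was -1.66 ± 0.10 (SE; adjusted p = 0.00306 by limma) in RPTEC SETD2KO against WT, and 1.58 ± 0.12 (adjusted p = 0.00371) in SETD2KO-1R against SETD2KO-1. For ATP5MC2 the differences were -1.0 ± 0.05 (adjusted p = 0.00155) and 1.00 ± 0.06 (adjusted p = 0.00139). NDUFAB1 was lower against WT by the same size (adjusted p = 0.00155), and its rescue libraries held 0 peaks as did SETD2KO-1. In RPTEC, NDUFAB1 entered the test only through the 1 peak in each WT library and ATP5MC2 only through the 4 SETD2-expressing libraries, so these genes could enter it only by being high there, and their calls are no support for a difference. COX7A2L, a protein that helps join complexes III and IV into supercomplexes, had 0 and 0 peaks in RPTEC WT, 2 and 2 in SETD2KO-1, 0 and 0 in SETD2KO-2 and 2 and 2 in SETD2KO-1R. Its higher value against WT (0.79 ± 0.05 SE, adjusted p = 0.00365 by limma) came from SETD2KO-1 alone, with the same numbers in the rescue, and the gene entered the RPTEC test only through those 4 libraries, so this call too is no support. These small errors come from replicates with equal peak numbers, which for ATP5MC2 and NDUFAB1 lay at separate places. When the covered length replaced the number of peaks, or genes with a peak in 1 library were kept in the test, none of these calls in RPTEC remained. CDH5, an endothelial gene, was also lower in RPTEC SETD2KO than in WT (-1.0) and higher in SETD2KO-1R than in SETD2KO-1 (1.0) by limma, and PDGFRB, a fibroblast gene, was higher in RPTEC SETD2KO than in WT. Their part in these values was not tested. Over all alternatives ATP5MC2 passed against WT in 15 of 20, UQCRH in 16 of 20, COX7A2L in 15 of 20 and NDUFAB1 in 13 of 15. In the rescue ATP5MC2 and UQCRH each passed in 13 of 18.

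At the level of single regions, 1 region followed SETD2 status in each cell line, in the subunit gene UQCR11 in 786-O and in a readthrough gene in RPTEC. Within a cell line, overlapping peaks from its 8 libraries were joined into regions. In 786-O, 237 such regions lay in the 97 genes. All 8 libraries called 13 of them (5.49%, beside 10.6% of all regions) and 89 were called in 1 library (37.6%, beside 38.0%). None was called in all 4 SETD2KO and no SETD2-expressing library, beside 0.281% of 65947 regions in protein-coding genes, and 1 was called in the reverse pattern, beside 0.152%. In RPTEC there were 168 regions, 4 of them called in all 8 libraries (2.38%, beside 8.87%) and 83 in 1 library (49.4%, beside 40.4%). None was called in SETD2KO libraries alone, beside 0.195% of 59018, and 1 in SETD2-expressing libraries alone, beside 0.213%. Regions called in 3 or 4 more SETD2-expressing than SETD2KO libraries numbered 2 in 786-O (0.844%, beside 1.23% of all regions) and 6 in RPTEC (3.57%, beside 1.94%). The opposite held for 5 in 786-O (2.11%, beside 2.18%) and 0 in RPTEC, beside 1.2%.

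The 786-O region lay in UQCR11. Over all 16 libraries it spanned chr19:1597356-1597811, 456 bp, and began 187 bp inside the 3′ end of the gene body, which is read from the minus strand. It was called in both WT and both SETD2KO-1R libraries of 786-O and in neither SETD2KO clone. In RPTEC it was called in WT replicate 1 and in both SETD2KO-1R libraries, and in none of the 4 SETD2KO libraries. It was thus called in 7 of 8 SETD2-expressing and 0 of 8 SETD2KO libraries. Of the 82617 regions merged over both cell lines, 6 (0.00726%) were called in 7 or 8 SETD2-expressing and no SETD2KO libraries, and 1 of those 6 was this one. The reverse pattern was met by 10 regions (0.0121%), none of them in these genes. All 7 peaks were low in their lists, between the 7.0th and the 31.7th percentile of scores with a median of 21.1. They lay within 302 to 420 bp of length, with summits between 1597561 and 1597622. When only the upper 50% of each list by score was used, or the same number of peaks per library, this region no longer met the pattern. A further region of the gene, chr19:1602609-1603474, had no such pattern: it was called in both SETD2KO-1 libraries of 786-O as well as in WT and SETD2KO-1R, and not in SETD2KO-2, and in RPTEC in SETD2KO-2 replicate 1 alone.

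**Figure D4:**
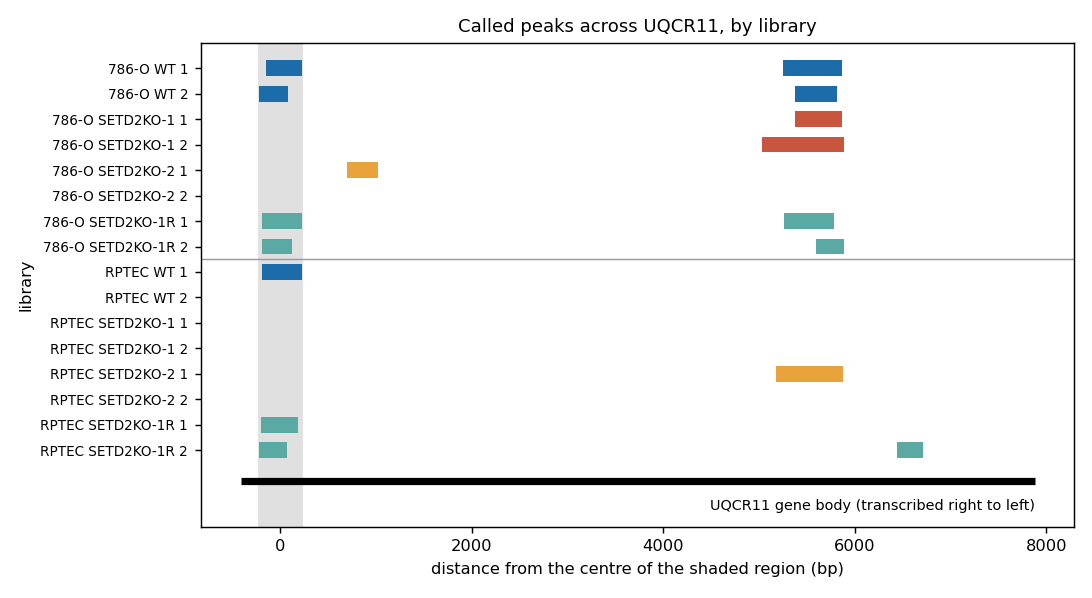
Called peaks across the UQCR11 gene body (horizontal axis, distance in bp from the centre of the shaded region) in each of the 16 libraries (rows; colour gives the line). The shaded region, 456 bp near the 3′ end, has a peak in 7 of 8 SETD2-expressing libraries and in none of the 8 SETD2KO libraries.

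The RPTEC region lay at chr7:99419132-99419463 in the readthrough gene ATP5MF-PTCD1. PTCD1 and BUD31 overlap it, and of the 95 peaks counted to ATP5MF-PTCD1 over the 16 libraries 11 had their summit in that gene alone, so the region cannot be given to the subunit. In 786-O the same place was called in both libraries of WT, SETD2KO-1 and SETD2KO-2 and in neither of SETD2KO-1R.

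Between the cell lines, 9 oxidative phosphorylation genes passed, all with more peaks in 786-O. The 8 libraries of 786-O were compared with the 8 of RPTEC by limma, over 71 of the 97 genes. In 786-O 9 genes had more peaks and 0 had fewer, beside 10.2% of all genes with more and 4.86% with fewer. The 9 are 12.7% of the 71, near the share of all genes. With the upper 50% of peaks 3 passed, and at equal list lengths 5, of which 4 had more peaks in 786-O and 1 had fewer. Over all genes 1019 and 1259 passed under these settings, beside 1912. The fit with the replicate number as a block gave 2, and 740 over all genes. It held a separate replicate term for each cell line, so its difference was that of the replicate 1 libraries alone. It is therefore no test of the block. The median log2 difference was 0.25 over the 71 genes and 0.20 over all genes tested. The 8 libraries of a cell line are 4 lines of 1 model, so the p-values describe these lines and not the disease.

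NDUFAF6, needed for complex I assembly, had the largest difference and the lowest p. It had 8 and 4 peaks in 786-O WT, 7 and 7 in SETD2KO-1, 8 and 10 in SETD2KO-2, and 6 and 8 in SETD2KO-1R. In RPTEC it had 3 and 2, 0 and 3, 5 and 1, and 1 and 0 (log2 difference 1.74 ± 0.31 SE, adjusted p = 0.000547 by limma). The ranges overlapped at 4 and 5 peaks. CCNE2 and TP53INP1 lie within this gene body, and 58 of its 73 peaks had their summit in NDUFAF6 alone. It lies on chromosome 8, which held 3.99% of peaks in 786-O and 3.71% in RPTEC. NDUFAF8 had 1 peak in each of the 8 libraries of 786-O and in 2 of RPTEC (0.75 ± 0.21 SE, adjusted p = 0.0173 by limma).

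Among subunits, NDUFS7, a core iron-sulfur subunit, had 1 to 3 peaks in each of the 8 libraries of 786-O and 1 peak in 2 of RPTEC (log2 difference 1.09 ± 0.24 SE, adjusted p = 0.00279 by limma). NDUFA7 had 14 peaks in 7 of the 8 libraries of 786-O and 2 in RPTEC (1.09 ± 0.26 SE, adjusted p = 0.00535). ATP5ME, subunit e of the ATP synthase, had 1 or 2 peaks in each of the 8 libraries of 786-O and 1 peak in 2 of RPTEC (0.90 ± 0.22 SE, adjusted p = 0.00798). One ATP5ME region, chr4:673450-673839, was called in 8 of 8 and 2 of 8 libraries, and so was one of NDUFAF8, chr17:81240432-81241056. These 2 are 0.719% of the 278 regions, beside 0.31% of all regions, and 0 were called in all 8 of RPTEC and at most 2 of 786-O, beside 0.234%. NDUFA6, CYC1, UQCRC2 and NDUFS5 passed with adjusted p between 0.0340 and 0.0428. They passed in 13 of 25, 8 of 25, 9 of 26 and 14 of 23 alternatives respectively, and NDUFAF6 in 26 of 26. NDUFA6 and NDUFS5 had no peak in RPTEC. All 786-O peaks of NDUFS5 were in SETD2KO libraries, so that it had 0 in WT of both cell lines. NDUFA6 and NDUFS5 entered the test only through 786-O. CYC1, with a peak in 1 RPTEC library, also met the filter only through 786-O. The calls of NDUFA6, NDUFS5 and CYC1 are no support for a difference. UQCRC2, a core protein of complex III, shares most of its peaks with PDZD9, and 5 of its 15 peaks had their summit in UQCRC2 alone. No gene of complex IV passed. For none of the 71 genes were the cell lines wholly apart, a pattern that 0.978% of all genes showed with more peaks in 786-O and 1.0% with fewer.

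**Figure D5:**
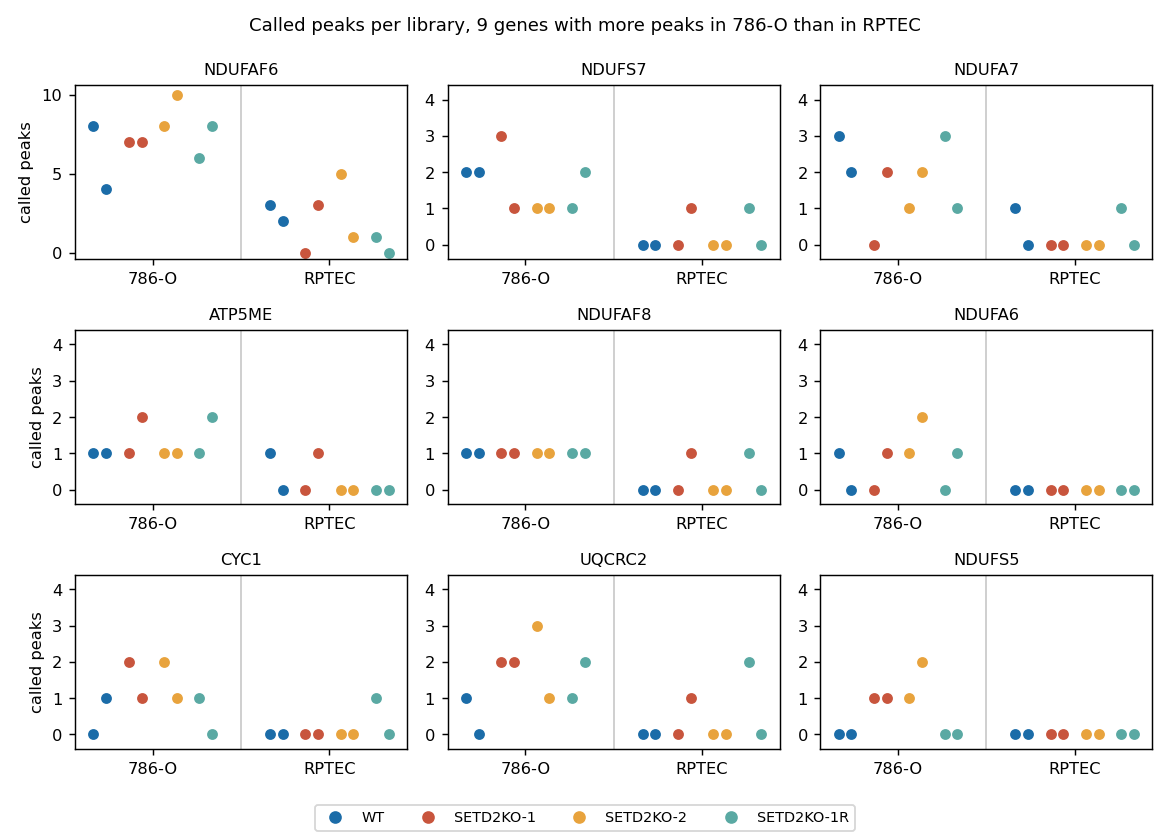
Number of called peaks (vertical axis) in each library of 786-O and RPTEC for the 9 genes with more peaks in 786-O by limma, ordered by adjusted p; colour gives the line. NDUFAF8, NDUFS7 and ATP5ME have a peak in all 8 libraries of 786-O and in 2 of RPTEC, and for each gene the ranges of the cell lines touch or overlap.

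Paralogs within a complex were not alike in these lists. For subunit 4 of complex IV, COX4I1, the form found in most tissues, had a peak in 4 libraries of 786-O and 5 of RPTEC, and COX4I2, the form linked to lung and low oxygen, in none. COX6A1, the form of most tissues, had one in 6 and 5 libraries, and the muscle form COX6A2 in none. COX7A1 had one in 3 and 1, and its counterpart COX7A2 in none. COX6B1, COX7B, COX7B2, COX8A and COX8C had none, and COX6B2, the testis form, had one in 1 library. Of the 3 genes that encode the same subunit c of the ATP synthase, ATP5MC2 had a peak in 2 and 4 libraries, ATP5MC3 in 3 of 786-O and ATP5MC1 in none. UQCRHL, a close copy of UQCRH, had 5 peaks, none with its summit in UQCRHL alone, and reads of such copies may not be separable.

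Along the gene bodies, peaks of these genes lay somewhat more in the first part and less in the last part than peaks of other genes. For genes with a known strand, each gene body was divided into 5 equal parts. In 786-O 26.8% of 489 summits fell in the last part, beside 32.3% of 191620 in all genes, and 24.3% in the first, beside 21.1%. The part before the last went the other way in 786-O, with 21.7% beside 18.0%, and held 16.9% beside 18.0% in RPTEC. In RPTEC the last part held 29.0% of 307 summits, beside 33.6% of 160241, and the first 27.0%, beside 19.8%. Peaks of 1 gene in several libraries are counted each time, so these are descriptions with no test.

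Of the 104 other genes of the pathway, 86 were tested in 786-O and 79 in RPTEC for SETD2KO against SETD2-expressing libraries, and 0 passed in either (limma). In RPTEC SETD2KO against WT, COQ10B was higher and ETFB and GABPA were lower, beside 1.93% and 1.4% of all genes. In RPTEC SETD2KO-1R against SETD2KO-1, PERM1 and ETFB were higher, 2 of 79, beside 1.4% of all genes, and 0 were lower. In RPTEC, COQ10B had peaks in SETD2KO-2 alone, PERM1 in SETD2KO-1R alone and ETFB in the SETD2-expressing libraries alone. These genes entered the RPTEC test only by being high there, and their calls are no support for a difference. Between the cell lines 11 of 91 had more peaks in 786-O and 0 had fewer, beside 10.2% and 4.86% of all genes, among them TFB2M, PPARGC1A and PPARGC1B, regulators of mitochondrial genes, and COQ9 and DHODH. TFB2M and PDSS1, both among the 11, had no peak in RPTEC, and COQ9 had a peak in 1 RPTEC library. These genes met the filter only through 786-O and are no support for a difference.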

How the data were processed

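MeRIP-seq peak lists of 16 IP libraries were used; the members and gene lists were chosen with earlier results of these data known. The authors aligned reads with STAR, counted with HTSeq, used an E. coli spike-in for scaling, and ran MACS2 on each IP against its Input, on hg38 per the labels' processing notes. The deposited lists give a score per peak, a whole number of unstated scale, which served to rank peaks within a library, and other columns with each peak's start, end and summit. No counts are given, so no interval from depth can be given. Genes were RefSeq gene bodies of GRCh38.p14.

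Peaks per gene, as log2(peaks + 1), were fitted with limma 3.58.1 in R 4.3.3 (empirical Bayes with trend and robust moderation; genes with a peak in at least 2 libraries; Benjamini-Hochberg, adjusted p under 0.05). Within a cell line the designs were SETD2 status and the 4 lines. Over both cell lines, the difference between them came from a fit of cell line and SETD2 status without interaction. A separate fit added the interaction. Other steps used Python 3.11.15, NumPy 2.4.6, pandas 2.3.3 and Matplotlib 3.10.9. The limma fits by SETD2 status and by line were also run on simulated peak numbers, and the other steps were not. Libraries were grouped by title and genotype.

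Genes named were those with an adjusted p under 0.05, the 6 with the lowest p for SETD2 status per cell line, the 10 with most peaks, those with a region called by status alone or in all 16 libraries, complex II, and paralog pairs. NDUFA4 and NDUFA4L2 are COXFA4 and COXFA4L2 in the gene table and fell outside the symbols. None of the 97 had a peak in at least 7 of 8 libraries of 1 cell line and at most 1 of the other. Others in the text were chosen after their values were seen. Alternatives were the overlap, the peaks used, the pseudocount, the filter, covered bp, non-overlapping genes, a replicate block, line as a random block, each clone alone and each library left out. The test on summits in 1 gene and the fit without robust moderation were chosen after seeing the data.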

Additional observations from a re-analysis of the deposited data

Results flagged for a closer look

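Peaks on the mitochondrial contig lie outside the 97 nuclear genes. They numbered 8 in 786-O SETD2KO-1 replicate 1, 7 in 786-O SETD2KO-2 replicate 2 and 3 in RPTEC SETD2KO-1 replicate 1, against 1 or 2 in the WT libraries of both cell lines. They drew attention because they covered more subunit genes than in any WT library: 9, 11 and 4 of the 13 mitochondrial subunit genes, against at most 2. The other replicate of SETD2KO-1 in 786-O had 1 peak and that of SETD2KO-2 had 2, so the 786-O SETD2KO libraries overlapped with the SETD2-expressing ones. Their part in the results above was not tested. By Dixon's ratio of gap to range, no library passed the 95% limit in the number of these nuclear genes with a peak or of their peaks, in 12 sets of 4 or 8 libraries. RPTEC SETD2KO-2 replicate 2 was the lowest, with 17 genes and 21 peaks, and the other 7 libraries of RPTEC had at least 26 genes and 38 peaks.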

How the results depend on the processing

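The lists give peaks and not read counts, so neither a peak missed for lack of reads nor a change in RNA level can be separated from a change in m6A. Peaks per gene are small whole numbers, and equal replicates give errors close to 0. Over 28 pairs of a gene and a comparison named, 515 of 611 alternative values kept direction and side of the threshold, 88 lost and 6 gained the threshold, and 2 turned sign, both for UQCR11 by SETD2 status in 786-O: 0.50 with the upper 50% of peaks by score and 0.10 with all lists cut to 1 length. In each case below the cause was not tested.

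With the upper 50% of peaks, the 97 genes had a peak in 34.4% of cases in 786-O and 20.7% in RPTEC. The same number of peaks within 786-O gave 43.0% and summits in the gene alone 41.6%. For SETD2KO against WT in 786-O, 2 genes passed with the upper 50%, 1 with the same number of peaks and 1 without robust moderation, against 0 (over all genes 266, 282 and 256, against 12). In RPTEC that comparison gave 1 with the upper 50%, 1 with the same number of peaks, 0 with genes that had a peak in at least 1 library, 1 with a peak in at least 50% of the libraries and 0 with covered bp, against 4 (over all genes 313, 341, 56, 59 and 56, against 372). For SETD2KO-1R against SETD2KO-1 in RPTEC, 0 passed with the same number of peaks, with the filter at 1 library or 50% of the libraries, and with covered bp, against 2 (over all genes 204, 2, 2 and 0, against 270). Without robust moderation, SETD2 status gave 1 gene in 786-O and 2 in RPTEC, the rescue in 786-O 1, and the difference between cell lines in the SETD2KO effect 1, as did covered bp (over all genes 118, 104, 173, 107 and 103, against 47, 29, 1, 49 and 49). SETD2KO-2 alone gave 1 gene for RPTEC status (255 over all genes). Between the cell lines 3 passed with the upper 50% and 5 with the same number of peaks, 4 higher and 1 lower in 786-O, against 9 (over all genes 1019 and 1259, against 1912).

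Leaving out 1 library at a time gave 2 to 6 genes for SETD2KO against WT in 786-O, with 6 without SETD2KO-2 replicate 2, 5 without SETD2KO-2 replicate 1 and 2 without any other. It gave 2 to 6 for the rescue in 786-O, 3 to 6 and 2 to 6 for those comparisons in RPTEC (5 and 6 in the rescue without SETD2KO-1R replicate 1 and 2), and 5 to 9 between the cell lines (5 without 786-O SETD2KO-2 replicate 1, RPTEC SETD2KO-1 replicate 1 or RPTEC SETD2KO-2 replicate 2). Where a line kept 1 library, it was assumed to vary like the other lines. SETD2 status gave 0 each time. Regions called in SETD2KO libraries alone numbered 0 to 2 in 786-O, and those in SETD2-expressing libraries alone 1 to 2 in 786-O and 1 to 3 in RPTEC. With at most 1 exception allowed, these were 5, 2 and 6, and the upper 50% gave 2 for the last.

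Same-numbered libraries did not deviate together, with correlations of replicate differences from -0.17 to 0.18 over pairs of lines. With the replicate number as a block, 2 genes passed between the cell lines, against 9, and over all genes 740 against 1912. That fit held a separate replicate term for each cell line, so its difference was that of the replicate 1 libraries alone. For this comparison it is therefore no test of the block. The block moved no other count of oxidative phosphorylation genes.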
